A study of Mus musculus with 40 samples.

Results

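The proteasome subunits and their partners were followed in 2 leg muscles of mice on a low fat diet (LFD) or a high fat diet (HFD). Members were the probe sets whose current gene symbol starts with Psma to Psmg and a number, leaving out the interferon-induced core subunits *Psmb8* and *Psmb9*. The rule used names only and found 43 of 16475 probe sets, each for 1 gene. The study profiled the gastrocnemius and quadriceps of 20 male C57BL/6J mice (spelled C56BL/6J in the labels) with 40 Affymetrix arrays, so that both muscles of a mouse have an array of their own. All mice were moved at 9 weeks of age to the LFD for a run-in of 3 weeks, after which 10 stayed on the LFD and 10 received the HFD for 8 weeks, so that the mice were 20 weeks old. Both diets had palm oil as their fat, and the mice were fasted before dissection. The groups are gastrocnemius LFD, quadriceps LFD, gastrocnemius HFD and quadriceps HFD, with 10 arrays each. No group was a clone or a pool, but each array holds whole muscle with all its cell types, so that fewer cells of a type and less RNA per cell cannot be told apart.

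The proteasome is the main protease for ubiquitin-tagged proteins in the cytosol and nucleus. Its core particle is a barrel of alpha and beta rings with the cleavage sites inside, and the regulatory particle docks on its ends, where a ring of ATPases unfolds substrates and the non-ATPase subunits bind and remove the ubiquitin. Dedicated chaperones build both particles, and other activators can take the place of the regulatory particle. In skeletal muscle this system breaks down myofibrillar protein, and its genes are known to rise together when muscle wastes.

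Of the 43 members, 11 belong to the core rings, 17 to the regulatory particle, 7 are assembly chaperones and 5 are other activators or an inhibitor. *Psmb10*, the interferon-induced subunit that replaces *Psmb7*, was kept apart from the rings. *Psmc3ip* and *Psme3ip1* match by name only, the first being a partner protein named after *Psmc3* and the second after *Psme3*. *Psma3*, *Psma4*, *Psma5*, *Psmb3* and *Psmb5* were not analysed here, so the core particle is covered in part and the regulatory particle more fully.

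Promoters were read from RefSeq (GRCm38.p6) as the 250 bases before and 50 bases after the gene start, a window of 300 bases that was found for 35 of the 43 members. Motifs were searched on both strands as letters, and a match is a description and not a site. The binding letters of ETS factors, CCGGAAG, were in 16 of 35 members (45.7%), in 9.9% of all 27025 genes with a window and in 22.5% of the 5105 of those that were expressed over the signal limit used for testing. In the regulatory particle 9 of 14 windows held these letters, and in the core particle 1 of 7 did. The antioxidant response core TGACNNNGC, letters bound by *Nfe2l1* and *Nfe2l2*, was in 5 of 35 members (14.3%), close to the 14.0% of all genes and the 17.3% of expressed genes. CCAAT was in 13 of 35 (37.1%, against 41.1% and 42.4%) and the GC box GGGCGG in 22 of 35 (62.9%, against 38.2% and 70.4%). The stretches before the start are shown for the 3 members that differed between the muscles (*Psme4*, *Psmd8* and *Psma1*) and for *Psmc6* and *Psmd12*, which like *Psme4* held both CCGGAAG and TGACNNNGC. Capitals mark the 4 motifs. The positions are chr11:30771525-30771774 on the plus strand for *Psme4*, chr7:29180674-29180923 on the minus strand for *Psmd8*, chr7:114276117-114276366 on the minus strand for *Psma1*, chr14:45329574-45329823 on the plus strand for *Psmc6* and chr11:107479278-107479527 on the plus strand for *Psmd12*.
Psme4: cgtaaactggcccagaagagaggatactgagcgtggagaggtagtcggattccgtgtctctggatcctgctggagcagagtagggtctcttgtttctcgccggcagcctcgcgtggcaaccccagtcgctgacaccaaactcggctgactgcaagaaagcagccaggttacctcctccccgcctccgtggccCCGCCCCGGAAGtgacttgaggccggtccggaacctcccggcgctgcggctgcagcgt
Psmd8: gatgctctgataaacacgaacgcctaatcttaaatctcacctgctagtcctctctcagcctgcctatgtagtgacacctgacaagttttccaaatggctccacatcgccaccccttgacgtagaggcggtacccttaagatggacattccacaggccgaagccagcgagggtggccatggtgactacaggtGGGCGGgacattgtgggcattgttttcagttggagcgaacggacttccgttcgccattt
Psma1: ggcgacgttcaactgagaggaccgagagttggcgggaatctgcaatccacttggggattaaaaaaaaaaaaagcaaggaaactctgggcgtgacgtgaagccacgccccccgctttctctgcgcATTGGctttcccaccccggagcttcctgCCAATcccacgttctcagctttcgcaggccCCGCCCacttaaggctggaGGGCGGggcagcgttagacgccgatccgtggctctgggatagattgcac
Psmc6: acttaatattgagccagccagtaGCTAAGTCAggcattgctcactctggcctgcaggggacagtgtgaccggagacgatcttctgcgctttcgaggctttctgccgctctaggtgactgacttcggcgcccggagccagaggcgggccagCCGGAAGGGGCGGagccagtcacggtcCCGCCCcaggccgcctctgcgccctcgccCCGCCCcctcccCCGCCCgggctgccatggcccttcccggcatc
Psmd12: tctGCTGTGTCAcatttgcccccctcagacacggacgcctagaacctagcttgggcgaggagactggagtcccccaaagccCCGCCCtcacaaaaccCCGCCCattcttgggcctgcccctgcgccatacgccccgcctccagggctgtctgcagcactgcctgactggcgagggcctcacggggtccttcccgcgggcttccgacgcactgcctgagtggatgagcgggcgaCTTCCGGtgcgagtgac
In *Psme4* the GC box started 58 bases before the gene start on the opposite strand and shared 1 base with CCGGAAG, which started 53 bases before it. Its match to TGACNNNGC started 7 bases before the gene start on the opposite strand and ran past it, so that it is not in capitals. *Psmd8* held 1 GC box and neither an ETS match nor a CCAAT box, and *Psma1* held 2 CCAAT matches and 2 GC boxes. In *Psmc6* and *Psmd12* the TGACNNNGC match lay far from the start, 227 and 247 bases before it.

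The members were read against a muscle profile. Skeletal muscle markers such as *Acta1* and *Ckm* were at high signal on each array, and the summed signal of 9 of them ranged from 160200 to 181000. The 7 slow fiber markers were all higher in the gastrocnemius over both diets. Of 8 neutrophil markers, 7 were in the table and 5 were tested, and all 5 were lower in the gastrocnemius. The summed signal was taken over all 7 in the table. It was 32.9 to 41.1 in the gastrocnemius of LFD mice and 34.8 to 40.7 in that of HFD mice. It reached 2552 in the quadriceps of LFD mice and 12730 in that of HFD mice, with 4 and 6 quadriceps arrays above 100. The granule markers *Mpo* and *Elane* averaged 18.3 and 6.13 over all arrays. Other markers also differed between the muscles over both diets. Of the tested adipocyte markers 4 of 4 were lower in the gastrocnemius (median log2 difference -0.938), and 2 of 2 of Schwann cells were higher (0.984). Among the 7 tested fibroblast and tendon markers 2 were higher and 1 lower at FDR under 0.05, from *Col3a1*, *Fmod* and *Thbs4* (median of the 7 0.102). The red cell precursor markers *Alas2* and *Slc4a1* were lower (median -1.231). The B cell markers *Cd79b*, *Vpreb3* and *Ms4a1* were near background and were not tested. The part of fiber type and of these cells in the differences below was not tested beyond the refits without those 10 arrays. The T cell markers were near background, with a sum of at most 19.9. The extraction protocol in the labels names the quadriceps for all arrays, and the muscle was taken from the titles.

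Testing required a signal intensity that averaged over 20, and 37 members passed it. The other 6 were *Psmb11*, the thymus beta subunit (mean signal intensity 3.23), *Psma8*, the testis alpha subunit (3.35), the chaperones *Psmg4* (6.16), *Psmd9* (10.9) and *Psmg3* (13.7), and *Psmc3ip* (8.94). Array medians were 8.8 to 9.4, so these 6 lay near background. Among the tested members the mean signal intensity ran from 26.9 for *Psme2* to 3570 for *Psmb7*, and 21 of 37 were over 1000. Signals of different probe sets cannot be ranked as RNA amounts. All 9 tested core subunits were at 482 or more and all 17 regulatory particle subunits at 387 or more. *Psmb10* (77.1), *Psme2*, *Psmf1*, a named proteasome inhibitor (33.4), and the chaperones *Psmd5* (94.2), *Psmd10* (105) and *Psmg1* (121) were nearer to background.

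The first question was whether the muscles differ in these genes. Differences are log2 gastrocnemius minus quadriceps from limma, with p-values adjusted over the 6479 tested probe sets, and calling a gene took a fold change over 1.3 together with FDR under 0.05. No member was called, in LFD mice (background 2.52% of all tested probe sets), in HFD mice (3.46%) or over both diets (3.75%). At FDR under 0.05 alone, 0 of 37 members passed in LFD mice (5.22% of all tested), 1 in HFD mice (6.62%, and 3.32% for higher) and 3 over both diets (18%). The 3 were *Psmd8*, higher in the gastrocnemius (8.13% of all tested were higher), and *Psme4* and *Psma1*, lower (9.83% were lower). The member shares lie below the background in each comparison of this fit, but among 37 members these gaps are of few genes and were not tested. At an unadjusted p under 0.05 there were 5 members in LFD mice (19% of all tested), 3 in HFD mice (18.7%) and 6 over both diets (28%). Over both diets the 95% interval of 36 of 37 members lay within 1.3-fold either way, which held for 87.6% of all tested probe sets, and the exception was *Psme2*.

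**Figure D1:**
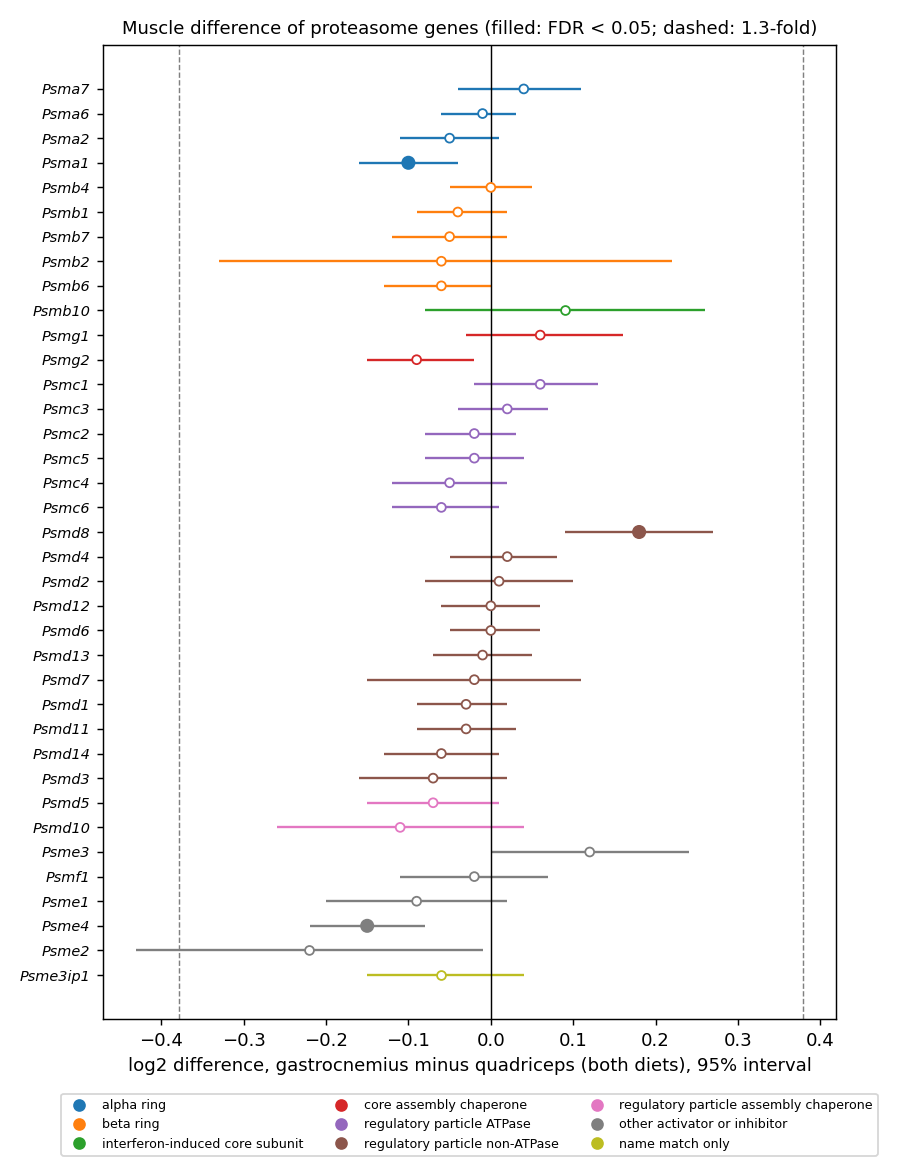
Log2 difference between gastrocnemius and quadriceps over both diets for the 37 tested members (horizontal axis), with points for the estimate and bars for the 95% interval, coloured by class. Filled points passed FDR under 0.05 and dashed lines mark 1.3-fold. *Psme4* (-0.15) and *Psma1* (-0.10) lie to the left, *Psmd8* (0.18) to the right, and the bar of *Psmb2* (-0.33 to 0.22) is the widest.

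*Psme4*, an activator that opens the core without ATP, was the member with the smallest p. In LFD mice its signal intensity was 2431 to 3001 in the gastrocnemius (median 2720) and 2770 to 3358 in the quadriceps (median 2959). In HFD mice it was 2518 to 3119 (median 2631) and 2717 to 3487 (median 2976). The groups overlapped, but the gastrocnemius was the lower muscle in 10 of 10 LFD mice and in 9 of 10 HFD mice. The log2 difference was -0.15 in LFD mice (SE 0.047, adjusted p = 0.0593) and -0.15 in HFD mice (SE 0.052, adjusted p = 0.0927). Over both diets it was -0.15 (SE 0.033, 0.90-fold, adjusted p = 0.00095). With the mouse as a fixed block the LFD difference passed (adjusted p = 0.0231), as it did with a random block (adjusted p = 0.00746).

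*Psmd8*, a lid subunit of the regulatory particle, differed the other way. Its signal intensity in LFD mice was 2852 to 3979 in the gastrocnemius (median 3095) and 2455 to 3569 in the quadriceps (median 2810). In HFD mice it was 2814 to 3798 (median 3175) against 2561 to 3062 (median 2724). The gastrocnemius was higher in 10 of 10 LFD mice and 9 of 10 HFD mice, although the groups overlapped. The log2 difference over both diets was 0.18 (SE 0.046, 1.13-fold, adjusted p = 0.00391). It was 0.16 in LFD mice (SE 0.073, adjusted p = 0.232, and 0.0268 with the mouse as a fixed block) and 0.20 in HFD mice (SE 0.055, adjusted p = 0.0286, and 0.0839 with the fixed block). Without the 10 quadriceps arrays with neutrophil signal the estimate over both diets was 0.15 with an adjusted p of 0.0992.

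*Psma1*, an alpha ring subunit, was the only tested ring subunit to pass over both diets. Its signal intensity was 1020 to 1232 in the gastrocnemius and 1079 to 1387 in the quadriceps of LFD mice (medians 1051 and 1154). In HFD mice it was 1058 to 1196 and 1056 to 1304 (medians 1144 and 1186). The gastrocnemius was lower in 15 of 20 mice, and the groups overlapped. The log2 difference over both diets was -0.10 (SE 0.030, 0.934-fold, adjusted p = 0.0171), and it was -0.09 with arrays centred on their median (adjusted p = 0.0722) and -0.10 in the fit of fewer arrays without those with neutrophil signal (adjusted p = 0.0900). In LFD mice alone it was -0.12 (SE 0.048, adjusted p = 0.152, and 0.0404 with the mouse as a random block).

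**Figure D2:**
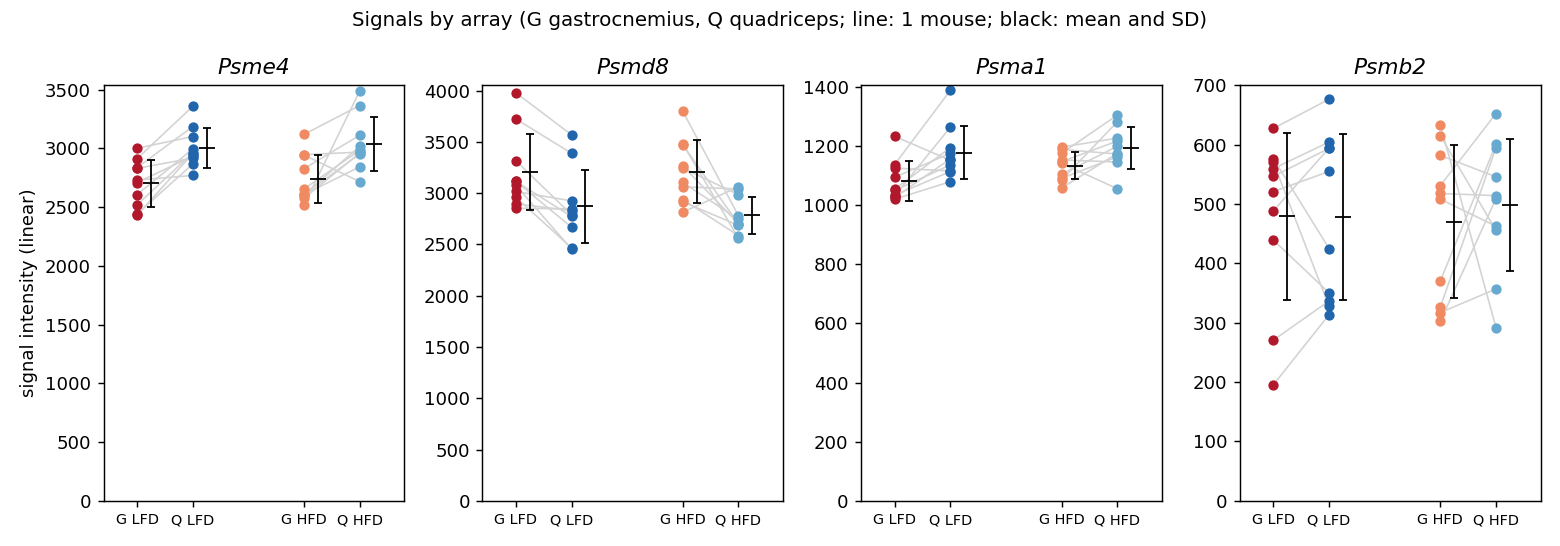
Signal intensity (linear, vertical axis from 0) of *Psme4*, *Psmd8*, *Psma1* and *Psmb2* on each array by group, with G for gastrocnemius and Q for quadriceps. Grey lines join the muscles of 1 mouse and black marks are the mean and SD of 10 arrays. The lines of *Psme4* rise toward the quadriceps in 19 of 20 mice and those of *Psmd8* fall in 19 of 20, while *Psmb2* spans 196 to 677 with no common direction.

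The other ring subunits stayed close together. In the alpha ring, *Psma2* differed by -0.05 (SE 0.030, adjusted p = 0.234), *Psma6* by -0.01 and *Psma7* by 0.04 over both diets. In the beta ring, *Psmb6* and *Psmb7*, which carry the caspase-like and the trypsin-like site, differed by -0.06 (SE 0.031, adjusted p = 0.165) and -0.05 (SE 0.035, adjusted p = 0.359). *Psmb6* was at 1962 to 2461 across all 40 arrays. The remaining beta subunits *Psmb1*, *Psmb2* and *Psmb4* lay at -0.04, -0.06 and 0.00. *Psmb10* was at 54.2 to 97 in LFD mice and 61.1 to 111 in HFD mice across both muscles, and differed by 0.09 (SE 0.084, adjusted p = 0.533).

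In the regulatory particle, none of the 6 ATPases passed. *Psmc6* was lowest at -0.06 (SE 0.031, adjusted p = 0.246) and *Psmc1* highest at 0.06 (SE 0.037, adjusted p = 0.338). Without the arrays with neutrophil signal *Psmc6* differed by -0.12 and passed (adjusted p = 0.0167). Apart from *Psmd8*, the non-ATPases ranged from -0.07 for *Psmd3* (adjusted p = 0.285) to 0.02 for *Psmd4*, a ubiquitin receptor. *Psmd1*, a scaffold of the base, differed by -0.03 (SE 0.027, adjusted p = 0.478), and *Psmd14*, the deubiquitinase of the lid, by -0.06 (adjusted p = 0.291). The interval of *Psmd6*, the brightest of this class, ran from -0.05 to 0.06.

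Among the other activators, *Psme1* and *Psme2*, which form the interferon-induced activator, differed by -0.09 (SE 0.053, adjusted p = 0.282) and -0.22 (SE 0.103, adjusted p = 0.145). *Psme2* was dim, at 17.6 to 42.4 across all arrays, and its interval of -0.43 to -0.01 reached beyond 1.3-fold. *Psme3*, the nuclear activator, differed by 0.12 (SE 0.060, adjusted p = 0.185) and *Psmf1* by -0.02 (adjusted p = 0.812). The chaperones *Psmg1* and *Psmg2*, which pair to start the alpha ring, differed by 0.06 (adjusted p = 0.384) and -0.09 (SE 0.034, adjusted p = 0.0702). *Psmg2* passed with the mouse as a random block (adjusted p = 0.0381), with array weights (0.0135), without mouse 141 (0.0413) or 145 (0.0272) and, at a difference of -0.14, without the arrays with neutrophil signal (0.0186). The chaperones of the regulatory particle, *Psmd5* and *Psmd10*, differed by -0.07 (adjusted p = 0.232) and -0.11 (adjusted p = 0.334), and *Psme3ip1* by -0.06 (adjusted p = 0.445).

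Core and regulatory particle were then set side by side, as a description. Over both diets 1 of 9 core subunits and 6 of 17 regulatory subunits had an estimate above 0. The median log2 difference was -0.051 in the core, -0.017 in the regulatory particle and -0.014 in all tested probe sets, of which 2859 of 6479 were above 0. In LFD mice the medians were -0.024, -0.010 and -0.010, and in HFD mice -0.049, -0.001 and -0.016. The gap between the mean log2 signal of the core and that of the regulatory particle was also taken on each array, where changes of the gap and not its height carry meaning. It averaged 0.082 ± 0.046 (SD, n = 10) in the gastrocnemius and 0.109 ± 0.048 in the quadriceps of LFD mice. In HFD mice it averaged 0.078 ± 0.043 and 0.116 ± 0.039. The gap was smaller in the gastrocnemius in 7 of 10 mice on each diet, and the 4 groups overlapped widely. The core mean includes *Psmb2*, which had the widest spread between mice of the tested members (SD 0.446). The lowest gap, -0.031 in the gastrocnemius of LFD mouse 142, came with a *Psmb2* deviation of -1.22 from its group mean. No gap without *Psmb2* was taken, so its part in these values was not tested.

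**Figure D3:**
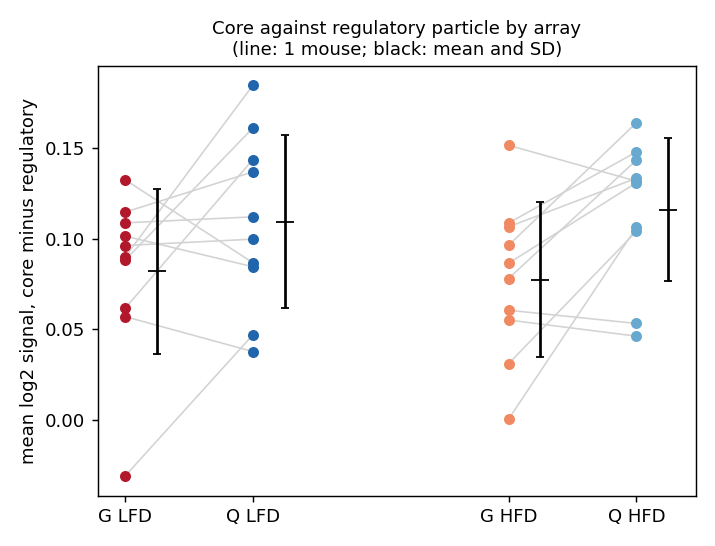
Mean log2 signal of the 9 core subunits minus that of the 17 regulatory particle subunits on each array (vertical axis), by group. Grey lines join the muscles of 1 mouse and black marks are the mean and SD of 10 arrays. All group means lie between 0.078 and 0.116 and the ranges overlap. The core mean includes *Psmb2*, the member with the widest spread (SD 0.446).

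The second question was whether the HFD changed these genes. Differences here are log2 HFD minus LFD within a muscle. No member passed FDR under 0.05 in the gastrocnemius (0.679% of all tested probe sets, and 0.216% with the fold change) or in the quadriceps (0.185%, and 0.0617% with the fold change). At an unadjusted p under 0.05 there were 4 members in the gastrocnemius (8.97% of all tested) while the quadriceps had 0 (5.68%). These 4 were *Psma6* at -0.06 (adjusted p = 0.489), *Psmg1* at -0.13 (adjusted p = 0.54), *Psme2* at -0.30 (adjusted p = 0.547) and *Psmd11*, a lid subunit, at 0.10 (adjusted p = 0.435). *Psmd11* was at 1536 to 1882 in the gastrocnemius of LFD mice (median 1661) and 1567 to 1959 in that of HFD mice (median 1792), so the groups overlapped. *Psme4*, *Psmd8* and *Psma1* moved with the diet by 0.02, 0.00 and 0.07 in the gastrocnemius and by 0.02, -0.04 and 0.02 in the quadriceps. The 95% interval of 35 of 37 members lay within 1.3-fold either way for the gastrocnemius (83.6% of all tested), and likewise 35 for the quadriceps (85.2%). *Psmb2* and *Psme2* were the exceptions in both muscles. The muscle difference depended on the diet for no member (0% of all tested probe sets at FDR under 0.05, and 0 members against 1.82% of all tested at an unadjusted p under 0.05), so the separate calls in LFD and HFD mice do not show a difference between diets. Medians of the diet difference in the gastrocnemius were 0.013 in the core, 0.017 in the regulatory particle and -0.016 in all tested probe sets. In the quadriceps they were 0.008, 0.008 and -0.011.

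The spread between mice of 1 group was small for most subunits. The SD of the log2 signal within groups had a median of 0.102 over the 37 members and 0.188 over all tested probe sets, and 31 members were below the latter. It was 0.087 in the core, 0.094 in the regulatory particle and 0.147 in the 11 other members. Since brighter probe sets vary less, the 21 members with a mean signal over 1000 were also set beside the 720 tested probe sets over that level, a cut chosen after the values were seen, and the medians were 0.087 and 0.111. *Psma6*, an alpha subunit, was the steadiest member with an SD of 0.049, and 0.2% of all tested probe sets had a smaller one. Its signal intensity ran from 2365 to 2808 over all 40 arrays. The catalytic *Psmb6* and *Psmb7* had SDs of 0.090 and 0.105. Above the median of all tested were *Psme3* (0.194), *Psmd7* (0.204), *Psmd10* (0.234), *Psmb10* (0.273), *Psme2* (0.335) and *Psmb2* (0.446).

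**Figure D4:**
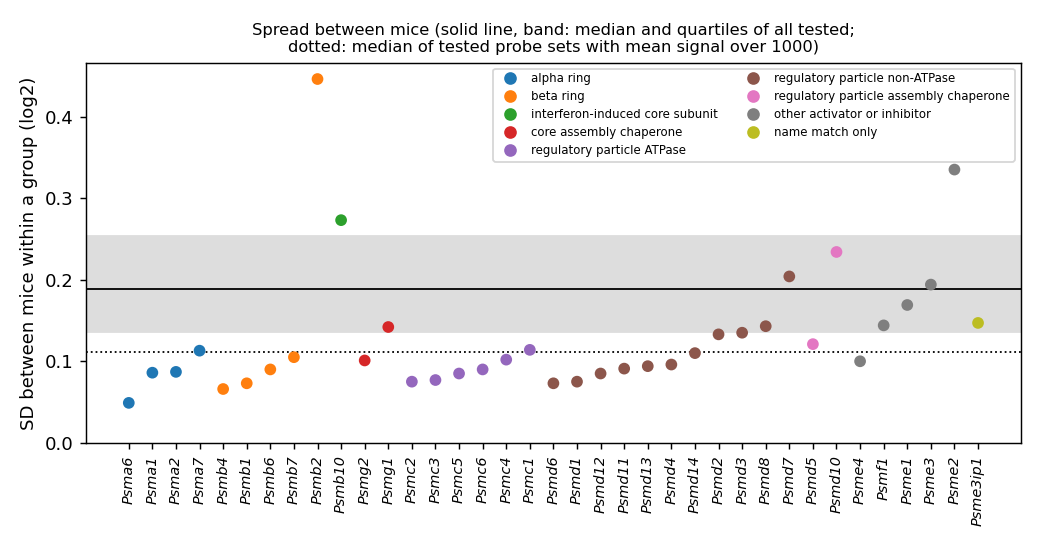
SD of the log2 signal between mice within a group (vertical axis) for each tested member, coloured by class. The solid line and the band give the median of all tested probe sets (0.188) and their quartiles (0.136 and 0.253), and the dotted line the median of those with a mean signal over 1000 (0.111). The rings and the regulatory particle lie mostly below the band, and *Psmb2* (0.446) lies farthest above it.

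*Psmb2*, a beta ring subunit without a cleavage site, stood apart from the rest of its ring. Its signal intensity was 196 to 627 in the gastrocnemius (median 534) and 314 to 677 in the quadriceps of LFD mice (median 490). In HFD mice it was 302 to 634 (median 513) and 292 to 652 (median 512). Mouse 142 was lowest in both muscles of the LFD group, with 196 and 314, and mouse 153 was also low in both, with 271 and 337. In HFD mice the muscles did not always go together, as mouse 144 had 634 in its gastrocnemius but 292 in its quadriceps. The highest array was 3.21 times the lowest in the gastrocnemius of LFD mice, where *Psma6* ran from 2547 to 2808. No muscle or diet difference of *Psmb2* passed a test, and the interval over both diets was -0.33 to 0.22.

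Deviations from the group means were correlated between members over the 40 arrays, as a description in which the arrays share their normalization and, in pairs, the mouse. The median correlation was 0.096 over 666 pairs of members and 0.016 over all pairs of tested probe sets, and 61.9% and 51.9% of the pairs were above 0. Correlations beyond 0.6 either way made up 5.56% of the member pairs and 4.87% of all pairs. Within the core 11 of 36 pairs (30.6%) were beyond 0.6, within the regulatory particle 7 of 136 (5.15%) and between the particles 7 of 153 (4.58%). The median was 0.114 within the core, 0.149 within the regulatory particle and 0.141 between the particles, and the core median was 0.406 when *Psmb2* was left out, a choice made after its values were seen. *Psmb4* and *Psmb6* reached 0.74, *Psma7* and *Psmb7* 0.73, and *Psmb1* and *Psmb6* 0.73. The highest pair was *Psmd7* with *Psmg2* at 0.77 and the lowest *Psmb2* with *Psme4* at -0.81. *Psmb2* was also opposed to *Psmd6* (-0.74) and went with *Psme1* (0.74). Some members moved with many other genes. *Psmd8* was beyond 0.6 with 1221 of the other tested probe sets (18.8%), *Psmd7* with 955 (14.7%) and *Psmb2* with 771 (11.9%). The counts were smaller for *Psmd6* (423, 6.5%) and *Psme4* (350, 5.4%). The median was 98 for the members and 107 for all tested. The part of RNA quality or array quality in these patterns was not tested.

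**Figure D5:**
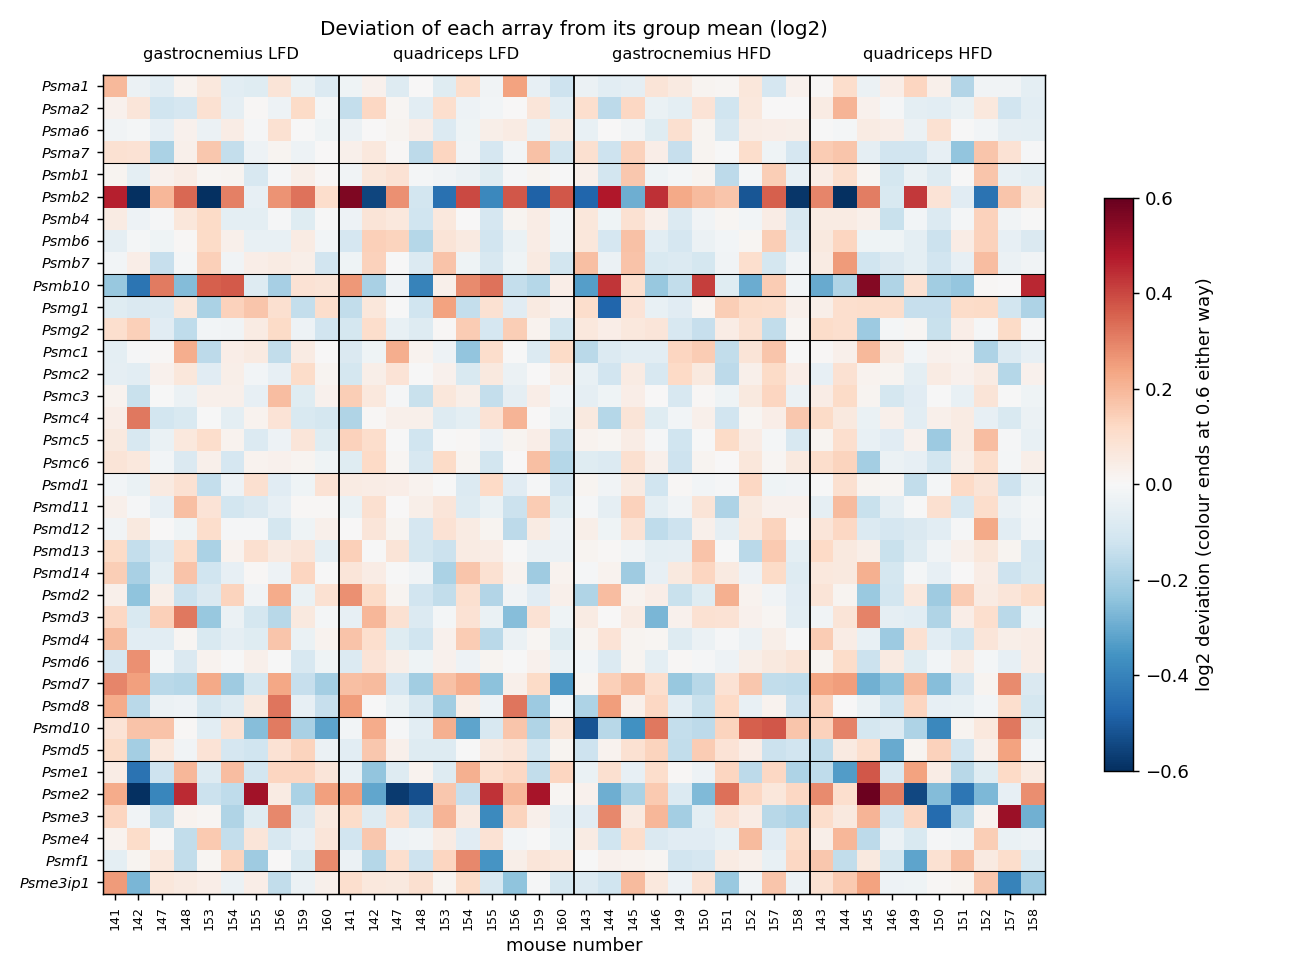
Deviation of the log2 signal from the group mean for the 37 tested members (rows, by class) on the 40 arrays (columns, by group and mouse number), in colour from -0.6 to 0.6. The rows of the rings and of the regulatory particle are pale, with SDs mostly under 0.188, and those of *Psmb2*, *Psmb10*, *Psme2* and *Psmd10* are strongly coloured.

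Genes that work with the proteasome were read from lists with the same fit, over both diets and at FDR under 0.05. Of all tested probe sets, 9.83% were lower in the gastrocnemius and 18% differed either way, and the lists are read against these shares. Of 6 tested proteasome genes outside the symbol rule, 1 was lower in the gastrocnemius and none higher. It was *Ubqln1*, a shuttle that carries ubiquitin-tagged proteins (-0.10, adjusted p = 0.0321), at 328 to 397 in the gastrocnemius and 368 to 451 in the quadriceps of LFD mice, and at 306 to 423 and 365 to 447 in HFD mice. It was lower in the gastrocnemius in 10 of 10 LFD mice and 6 of 10 HFD mice, with log2 differences of -0.16 (adjusted p = 0.053) and -0.05 (adjusted p = 0.732), and the dependence on diet did not pass. The call over both diets was lost with repeated quantile normalization (adjusted p = 0.0596), median centring (0.103), no signal filter (0.0605), adjustment before the filter (0.0605) or without mouse 143, 149, 154, 157 or 159. *Uchl5*, a deubiquitinase of the regulatory particle, differed by -0.10 (adjusted p = 0.0982). It passed with the mouse as a fixed block (adjusted p = 0.0338), with array weights (adjusted p = 0.013) and, at a difference of -0.19, without the arrays with neutrophil signal (adjusted p = 0.000865). *Sem1*, a small lid subunit, differed by -0.03 and *Pomp*, which matures the core, by 0.03 (adjusted p = 0.619). Of 8 tested control genes, 2 were lower (9.83% of all tested), *Stat3* (-0.29, adjusted p = 0.00523) and *Nfyb*, a subunit of the CCAAT-binding factor (-0.15, adjusted p = 0.0314). The call of *Nfyb* was lost with no signal filter (adjusted p = 0.0537), adjustment before the filter (0.0537), repeated quantile normalization (0.0544), median centring (0.0523) or without mouse 144, 146, 147, 149, 154 or 160. *Nfe2l1*, the factor that raises proteasome genes when proteasome activity falls short, was at 633 to 833 in LFD mice over both muscles and 672 to 940 in HFD mice. It differed by 0.03 between the muscles (SE 0.041, adjusted p = 0.75) and by 0.12 with the diet in the gastrocnemius (SE 0.059, adjusted p = 0.523). *Nfe2l2* differed by -0.09 between the muscles (adjusted p = 0.136, and 0.0486 with the mouse as a fixed block).

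Upstream of the proteasome, 4 of 10 tested ubiquitin genes and activating or conjugating enzymes were lower in the gastrocnemius (9.83% of all tested) and none higher. They were *Ube2d1* (-0.13, adjusted p = 0.000677), *Ube2b* (-0.10, adjusted p = 0.00408), *Ube2l3* (-0.10, adjusted p = 0.00492) and *Ube2n* (-0.25, adjusted p = 0.0182), all conjugating enzymes that work with ligases. The call of *Ube2n* was not checked with the alternative fits. The signal intensity of *Ube2d1* in the gastrocnemius and the quadriceps was 2462 to 2955 and 2791 to 3299 in LFD mice, and the gastrocnemius was lower in 17 of 20 mice over both diets. Of 8 shuttle and extraction genes only *Ubqln1* passed, while *Sqstm1* and *Nploc4* differed by 0.07 (adjusted p = 0.375) and 0.04 (adjusted p = 0.599). Of 8 muscle ubiquitin ligases 1 passed, *Trim63*, which tags myofibrillar proteins (-0.09, SE 0.030, adjusted p = 0.0254). Its call was lost with median centring (adjusted p = 0.0817), no signal filter (0.052), adjustment before the filter (0.052) or without mouse 143 or 148. *Fbxo32*, the other ligase known to rise in wasting muscle, differed by -0.14 (SE 0.086, adjusted p = 0.302) and *Trim54* by 0.06 (adjusted p = 0.332). In the interferon-induced antigen processing list, which holds *Psmb10*, *Psme1* and *Psme2*, 4 of 7 tested genes were lower (9.83% of all tested) and none higher. These were *H2-D1* (-0.20, adjusted p = 0.00562), *Tapbp* (-0.17, adjusted p = 0.0133), *B2m* (-0.13, adjusted p = 0.018) and *H2-K1* (-0.15, adjusted p = 0.0487). All are genes of antigen presentation, and no proteasome gene was among them. *H2-K1* lay close to the threshold, and its call was not checked with the alternative fits. Without the arrays with neutrophil signal *Tapbp*, *B2m*, *Stat3* and *Trim63* did not pass (adjusted p = 0.132, 0.129, 0.0841 and 0.122), although in that fit of fewer arrays their differences were still -0.15, -0.13, -0.26 and -0.08. *Tapbp* also missed the threshold with repeated quantile normalization (adjusted p = 0.0643). No gene of these lists passed for the diet in either muscle.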

How the data were processed

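The arrays covered the gastrocnemius and quadriceps of 20 mice, with groups taken from the sample labels. According to the methods, the authors redefined probe sets so that each Entrez gene has 1, normalized the arrays by quantiles and summarized them with GC-RMA, and the deposited signal intensity values are on a linear scale. Versions are not given in the sources used here. Of 16539 probe sets 64 controls were left out. Of the other 16475, 15752 were named through RefSeq, 28 through the platform annotation alone and 695 have no symbol. The log2 values were fitted in limma 3.58.1 (R 4.3.3) without a block for the mouse, on the 6479 probe sets with a mean signal over 20. The number of arrays limits the precision. The LFD and HFD muscle comparisons were fitted separately and all others over 4 groups. Array medians of 8.8 to 9.4 and array correlations of 0.985 to 0.997 (log2) set no array apart, and no arrays were identical. In single values the gastrocnemius array of LFD mouse 142 did lie at an end. It had the lowest summed signal of skeletal muscle markers (160200) and the lowest *Psmb2* (196). It also had the highest *Psmd6* (4081) and *Psmc4* (1022).

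The members, gene lists and tests were chosen with earlier results of these data known. Named genes are members with FDR under 0.05 in any comparison (up to 8 per direction), the 2 of each class and up to 3 of each pathway list with the smallest p over both diets, 9 genes always named and those under the signal limit. Others, such as *Psmb2*, *Psme1*, *Psme3* and *Psmd11*, were named after their values were seen. Both muscles come from the same mouse, and the median correlation of their deviations from the group means was 0.39 for muscles of the same LFD mouse and -0.05 for those of different LFD mice (HFD mice -0.07 and -0.01). A block for the mouse (fixed, and random), other filters, offsets, scalings, variance models, array weights and leaving out each mouse were alternatives. Leaving out the 10 quadriceps arrays with neutrophil marker signal over 100 was added after seeing the data. The fits were also run on simulated data with arrays drawn independently. Such data cannot show how the fits treat 2 muscles of the same mouse. Python 3.11.15, numpy 2.4.6, pandas 2.3.3 and matplotlib 3.10.9 were used. The deposited table was used whole, and the qPCR and blots were not analysed here.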

Additional observations from a re-analysis of the deposited data

Results flagged for a closer look

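Single arrays lay far from the other 9 of their group (by Dixon's criterion, the gap to the nearest array over the range) in 8 of 148 groups of a member, and chance marks about 1 in 20. In the gastrocnemius of LFD mice, mouse 142 was high for *Psmd6* (4081, the others 3146 to 3445) and for *Psmc4* (1022, the others 761 to 869), mouse 148 for *Psmc1* (2797, the others 2153 to 2491) and mouse 156 for *Psmc3* (1719, the others 1380 to 1542). In the gastrocnemius of HFD mice, mouse 144 was low for *Psmg1* (84.4, the others 112 to 130.3) and mouse 146 for *Psmd3* (340.5, the others 395 to 439). In the quadriceps of HFD mice, mouse 144 was high for *Psma2* (1466, the others 1176 to 1329) and mouse 145 for *Psmd14* (1056, the others 836 to 952). No member had a muscle difference that ran in opposite directions in all mice of the 2 diets.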

How the results depend on the processing

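No member reached a fold change over 1.3 with FDR under 0.05 in any comparison under any alternative that was run, and no called direction reversed. At FDR under 0.05 alone, 0 members passed in LFD mice, against 2 with the mouse as a fixed replicate block, 2 with a random block, 2 with array weights, and 1 each with a signal over 50, with 16 added before log2 and with a trended robust variance. Leaving out single mice gave 0 to 1 (1 without mouse 141, *Psme4*). In HFD mice 1 member passed, against 0 with the fixed block, 0 with no signal filter, 0 with adjustment before the filter and 0 without the arrays with neutrophil signal. Leaving out single mice gave 0 to 1, with 0 without mouse 144, 145, 146, 151 or 152 (*Psmd8*, adjusted p 0.0592 to 0.0953). Over both diets 3 members passed with and without the arrays with neutrophil signal, but only 1, *Psme4*, was shared, and *Psmc6* and *Psmg2* took the place of *Psmd8* and *Psma1*. Without those arrays 13.2% of all tested probe sets passed. That fit had fewer samples, 6 quadriceps arrays in LFD and 4 in HFD mice, and other causes were not tested. The fixed block could not be fitted for the diet differences. Among the genes read under the alternatives, the blocks changed no call besides those given here or beside the results. *Ube2n* and *H2-K1* were not among these genes. Repeated scaling moved the median of all probe sets by at most 0.014, and centring took *Psma1* over both diets to an adjusted p of 0.0722. The core minus regulatory median over both diets was -0.035, and -0.021 with no filter.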

Other observations

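*Ecpas*, which tethers proteasomes to other cell structures, had a wider range than any member, with the highest array of a group 5.38 to 8.39 times the lowest. Its signal intensity was 59.4 to 498 in the gastrocnemius and 95.6 to 514 in the quadriceps of LFD mice, and 85.6 to 471 and 72.3 to 531 in HFD mice. The log2 muscle difference over both diets was -0.17 (SE 0.280, adjusted p = 0.752). It was named after its values were seen.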
